A study of Mus musculus with 2 samples.

Results

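Mature surface colonocytes are the absorptive cells that face the lumen of the large intestine. Here they were 335 of the 6675 cell barcodes in a single-cell RNA library from the colon of transgenic Alzheimer's disease model mice (AD), and 100 of the 4146 barcodes in a library from wild-type colon (WT), 435 of 10821 in all. The AD animals were of the APP/PS1-21 line, which carries mutant human transgenes, among them amyloid precursor protein, under a neuronal Thy1 promoter. No other allele or agent is named for either library, and the number, age and sex of the animals are not given in the sources used here. The tissue was cut up on ice and dissociated with trypsin at body temperature, and droplet libraries read from the 3′ end of transcripts were made. With 1 library per genotype, library and genotype cannot be told apart, no test between genotypes can be made, and every interval below covers counting error only.

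The cells were chosen by the genes they held. A barcode counted as a mature surface colonocyte when it had at least 200 genes, at most 25% mitochondrial reads and at least 0.3% of its unique molecular identifiers (UMIs, 1 per captured transcript) on 6 epithelial genes. It also had to hold a UMI of at least 4 of 8 surface genes (Slc26a3, Car4, Aqp8, Krt20, Ceacam20, Guca2a, Tmigd1, Slc9a3). Less than 0.5% of its UMIs could fall on the goblet cell genes Muc2, Fcgbp, Clca1 and Spink4. Fewer than 3 of 7 exclusion genes (Duox2, Duoxa2, Nos2, Ifit1bl1, Ifit1bl2, Cyp2d9, Cyp2d12) could be present. Levels of the 8 surface genes, and all differences between these cells and other epithelium, therefore describe the choice and support nothing.

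Surface colonocytes arise from stem cells at the crypt base, leave the cell cycle as they move up, and are shed from the surface within days. They take up sodium chloride and water from the faecal stream by exchanging sodium for protons and chloride for bicarbonate, oxidise short-chain fatty acids made by bacteria, and carry a brush border of microvilli. They also secrete guanylin, a peptide that signals through the receptor guanylate cyclase C on the same epithelium.

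Depth differed between the libraries. The surface colonocytes held 4828165 UMIs in AD and 2092867 UMIs in WT. Their median depth was 12461 UMIs in AD, with a range of 935 to 84740, and 19841 UMIs in WT, with a range of 590 to 90999. The median mitochondrial share was 16.4% in AD and 17.7% in WT, and 0 of the 7 barcode sequences found in both libraries belonged to a surface colonocyte. The mitochondrial limit took 1952 barcodes (29.2%) out of the AD library and 2505 (60.4%) out of the WT library. Results are therefore also given below by mitochondrial share.

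Surface colonocytes made up a similar part of the epithelium in both libraries. They were 20.7% of epithelial cells in AD (exact Clopper-Pearson 95% interval 18.8 to 22.8) and 18.5% in WT (15.3 to 21.98), a ratio of 1.12 with an interval of 0.896 to 1.42 that includes no difference. Of all kept cells they were 7.14% in AD (6.42 to 7.92) and 6.45% in WT (5.28 to 7.79). With no mitochondrial limit the order turned, to 18.02% of epithelial cells in AD (16.7 to 19.4) and 23.5% in WT (21.9 to 25.2), a ratio of 0.767 with an interval of 0.683 to 0.862. Without that limit, the gate on Duox2 and the genes listed with it left out 18 AD and 357 WT otherwise qualifying barcodes, against 9 AD and 11 WT within it. The depth and mitochondrial share of the barcodes also move with the share of surface colonocytes, and the part of these and of the gate was not tested. At the threshold on surface genes, 81 AD and 24 WT cells entered with exactly 4 genes, at median depths of 14289 and 11378.5 UMIs, and 90 AD and 61 WT cells stayed out with 3 genes, at median depths of 11694 and 15094 UMIs. All 8 genes were present in 68 AD and 17 WT cells.

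Of the ion exchangers, Slc26a3 was held by nearly every surface colonocyte and Slc9a3 by fewer. Slc26a3, the apical chloride/bicarbonate exchanger, had 3332 UMIs in 329 of 335 AD cells and 1232 UMIs in 98 of 100 WT cells, or 690.1 and 589 counts per 1000000 UMIs (CPM) in AD and WT. Its median per cell was 5.87 per 10000 UMIs in AD and 5.90 in WT, and the log2 ratio of AD over WT sums was 0.23 (95% interval 0.13 to 0.32). Slc9a3, the apical sodium/proton exchanger NHE3, had 1125 UMIs in 241 AD cells and 617 UMIs in 68 WT cells (233 and 295 CPM), a log2 ratio of -0.34 (-0.48 to -0.20). The sign for Slc26a3 is not stable: it was -0.34 with every cell weighted equally and -0.068 without the deepest 5% of cells.

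Car4, a membrane-anchored carbonic anhydrase of the brush border, had 1028 UMIs in 192 AD cells and 476 UMIs in 77 WT cells (213 and 227 CPM). Its log2 ratio of -0.10 had an interval of -0.25 to 0.06, which includes 0. Aqp8, a water channel, had 762 UMIs in 164 AD cells and 141 UMIs in 50 WT cells (158 and 67.4 CPM), the widest ratio of the 8 genes at 1.22 (0.97 to 1.498). Aqp8 was also concentrated in few cells: the 5 cells with most of it held 23.9% of its UMIs in AD and 46.8% in WT, and the cell medians were 0 per 10000 UMIs in AD and 0.0846 in WT. Weighting every cell equally gave a log2 ratio of -0.08, so the direction for Aqp8 depends on how cells are combined.

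The structural and secreted genes had ratios under 1.5-fold, and the signs for Guca2a, Krt20 and Ceacam20 changed under some alternatives. Guca2a, which encodes guanylin, was present in all 335 AD cells and in 97 WT cells, with 23144 UMIs in AD and 8825 in WT (4794 and 4217 CPM) and a log2 ratio of 0.18 (0.15 to 0.22). Krt20, a keratin of differentiated gut epithelium, had 4302 UMIs in AD and 1551 in WT (891 and 741 CPM), a ratio of 0.27 (0.18 to 0.35). Ceacam20, an adhesion molecule of the microvilli, had 1108 UMIs in AD and 404 in WT (229 and 193 CPM), a ratio of 0.25 (0.08 to 0.42). Tmigd1, an adhesion protein of the brush border, was the sparsest, with 444 UMIs in 144 AD cells and 137 UMIs in 40 WT cells and a ratio of 0.49 (0.21 to 0.78). The plot of the 8 genes by library sets these sums beside the other epithelial cells.

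**Figure D1:**
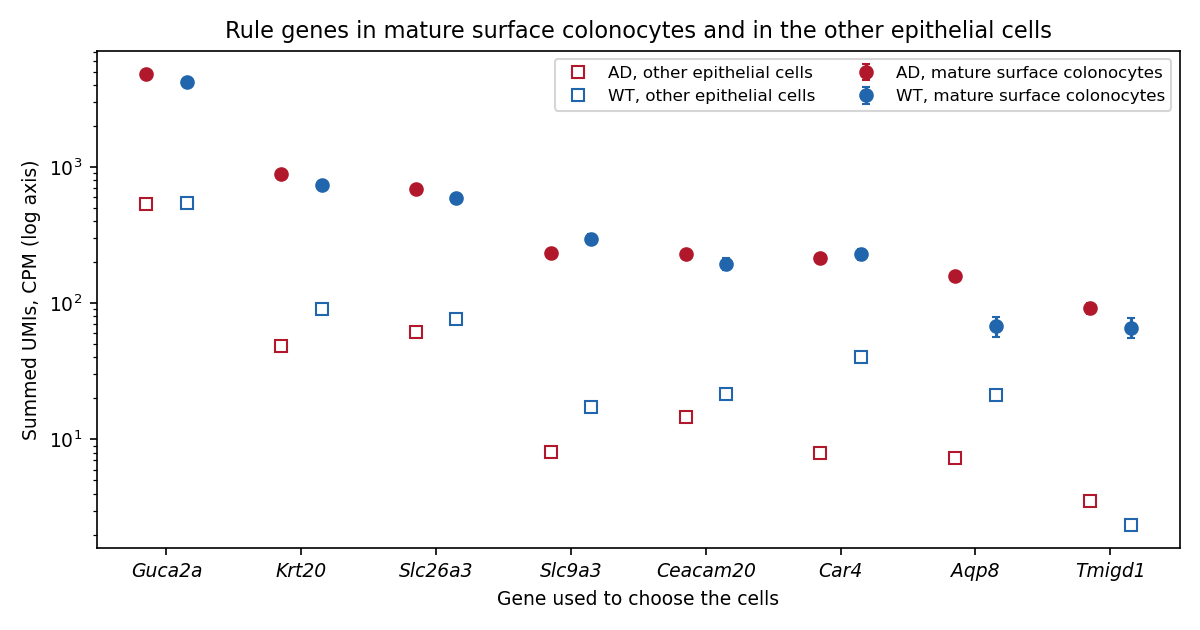
Summed UMIs (CPM, log axis) of the 8 genes that chose the cells, in mature surface colonocytes (filled circles, with exact Poisson 95% intervals) and in the other epithelial cells (open squares), for the AD and WT libraries. Filled circles of AD and WT lie close together for every gene but Aqp8, at 158 CPM in AD and 67.4 CPM in WT.

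The label rests on genes of the rule, so no independent marker tests it here. Their share of cells is given beside that in cells that should lack them, as the level free RNA in droplets can give, and the difference was fixed by the choice. After thinning every cell to 1000 UMIs, which left 334 AD and 96 WT surface colonocytes, Slc26a3 was present in 48.8% of them in AD and 50% in WT, against 1.31% of AD and 1.78% of WT non-epithelial cells thinned in the same way. Krt20 was present in 53.0% of AD and 56.25% of WT surface colonocytes, against 1.27% of AD and 1.00% of WT non-epithelial cells. Car4 was present in 22.5% in AD and 30.2% in WT, and Aqp8 in 13.2% in AD and 14.6% in WT. The share of WT non-epithelial cells with Car4 was 4.57%, the highest background of the 4 genes. Before thinning, the median depths were 2795 UMIs in AD and 3037 UMIs in WT for non-epithelial cells.

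**Figure D2:**
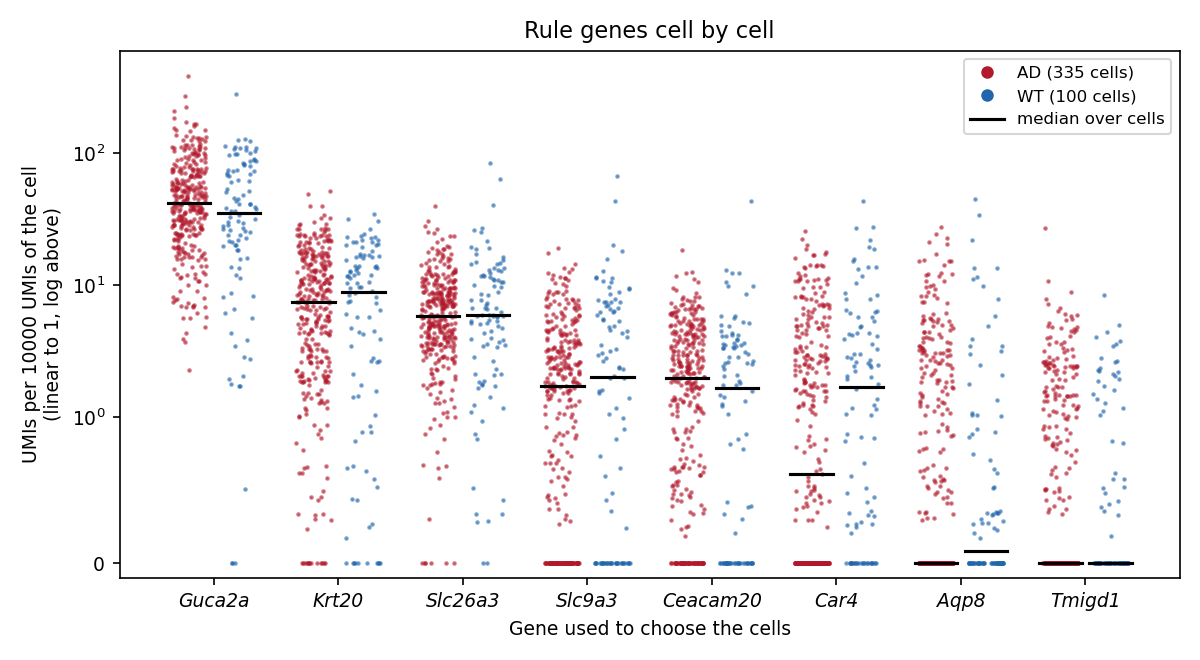
UMIs per 10000 UMIs of the cell (linear to 1, logarithmic above) for the same 8 genes, with each point 1 of 335 AD or 100 WT cells and black bars at the median over cells. Guca2a has medians of 42.3 in AD and 35.1 in WT with few cells at 0, while Tmigd1 has a median of 0 in both libraries.

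Beyond the genes of the rule, 437 of 6067 measured genes (7.2%) were at least 2-fold higher in surface colonocytes than in the other epithelial cells of the same library, in both libraries, and 282 (4.65%) were lower. A gene counted as measured with at least 100 UMIs in the surface colonocytes of both libraries together. These values describe cells picked by their genes. Unnamed gene models and markers of other cell types were not ranked. Among the genes ranked, Sptssb, a small subunit of serine palmitoyltransferase, had the widest difference outside the rule by the smaller of its 2 ratios. Its log2 ratio over other epithelium was 5.05 in AD and 4.13 in WT. Emp1, an epithelial membrane protein, was higher by 4.39 in AD and 3.97 in WT, and its relative Pmp22 by 4.05 in AD and 3.50 in WT. Fa2h, which hydroxylates fatty acids of sphingolipids, was higher by 3.19 in AD and 3.24 in WT. The cytochrome P450 gene Cyp2c55 was higher by 4.02 in AD and 3.89 in WT, the brush border protease gene Mep1b by 3.18 in AD and 3.07 in WT, and the cytosolic carbonic anhydrase gene Car1 by 4.24 in AD and 2.70 in WT.

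Lists of absorptive functions were set against other epithelium as well. The cells were chosen by absorptive genes and against goblet genes, so these values describe the choice and support nothing. Of 20 measured brush border genes, 11 were at least 2-fold higher than in other epithelium in both libraries, against 7.2% of all measured genes. The list medians were 1.60 in AD and 1.24 in WT. Among xenobiotic metabolism genes it was 19 of 33, with medians of 1.74 in AD and 1.26 in WT. Among fatty acid oxidation genes it was 5 of 26, with medians of 0.72 in AD and 0.67 in WT. On the lower side stood all 9 measured goblet genes, of which the rule used some, and 6 of 9 cell division genes. So did 5 of 8 stem and crypt genes and 7 of 16 genes of protein folding in the endoplasmic reticulum, against 4.65% of all measured genes.

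Within the surface colonocytes, cells with more of the 8 genes also held more of several others. Setting 139 AD and 37 WT cells with 7 or 8 surface genes against 81 AD and 24 WT cells with 4, Saa1, which encodes serum amyloid A, was higher by a log2 ratio of 3.18 in AD (935 against 102.7 CPM) and 3.52 in WT (1113 against 96.0 CPM). Emp1 was higher by 2.59 in AD and 2.92 in WT. The peptide transporter gene Slc15a1 was higher by 3.61 in AD (146 against 6 UMIs) and 3.45 in WT (32 against 1 UMI). Its ratios thus rest on very few UMIs in the cells with 4 genes. Cells with 4 genes held more Rnf186 (-3.02 in AD, -3.00 in WT), the cell cycle genes Ccnb2 (-2.32 in AD, -4.25 in WT) and Ccnd2 (-2.13 in AD, -1.73 in WT), and Myb (-2.61 in AD, -2.51 in WT), a factor of dividing crypt cells. Brush border genes had a median of 0.73 in AD and 1.29 in WT between these cells, and cell division genes -0.53 in AD and -2.86 in WT. Markers of other cell types differed too, with enteroendocrine medians of -2.51 in AD and -7.31 in WT. Fibroblast medians were 2.00 in AD and 0.87 in WT, and plasma cell medians 0.90 and -0.30. Class II genes of the major histocompatibility complex were at 1.31 in AD and 2.04 in WT. Pcsk1n was higher with 4 genes (-3.94 in AD, -5.18 in WT). The split uses genes of the rule, and the part of cells mixed with other types was not tested. The median depth of cells with 7 or 8 genes was 12819 UMIs in AD and 26747 in WT, and the part of depth in this split was not tested.

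Some of the surface genes varied together from cell to cell. After thinning to 2000 UMIs, which left 328 AD and 91 WT cells, Guca2a and Krt20 had a Spearman correlation of 0.56 in AD and 0.62 in WT, and Aqp8 and Car4 of 0.36 in AD and 0.45 in WT. Aqp8 and Slc26a3 were close to unrelated, at 0.18 in AD and -0.04 in WT. By the same measure, the gene most like Guca2a was 1810065E05Rik, at 0.59 in AD and 0.75 in WT, and outside the 8 surface genes the gene most like Krt20 was also 1810065E05Rik, at 0.54 in AD and 0.61 in WT, and that most like Car4 was Saa1, at 0.42 in AD and 0.46 in WT. All points share a library, and these values are descriptions.

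Between the genotypes, 404 genes (6.66% of 6067) were at least 1.5-fold higher in AD than in WT surface colonocytes and 348 (5.74%) at least 1.5-fold lower. The median log2 ratio over all measured genes was 0.03. Groups of genes with a shared function differed in how their members lay. Most heat-shock genes were lower in AD, and 6 of 14 sterol genes were higher. Genes of respiration, of fatty acid oxidation and of salt and bicarbonate transport had few members past 1.5-fold, as had measured genes as a whole. The plot of gene lists shows each member of the main lists.

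**Figure D3:**
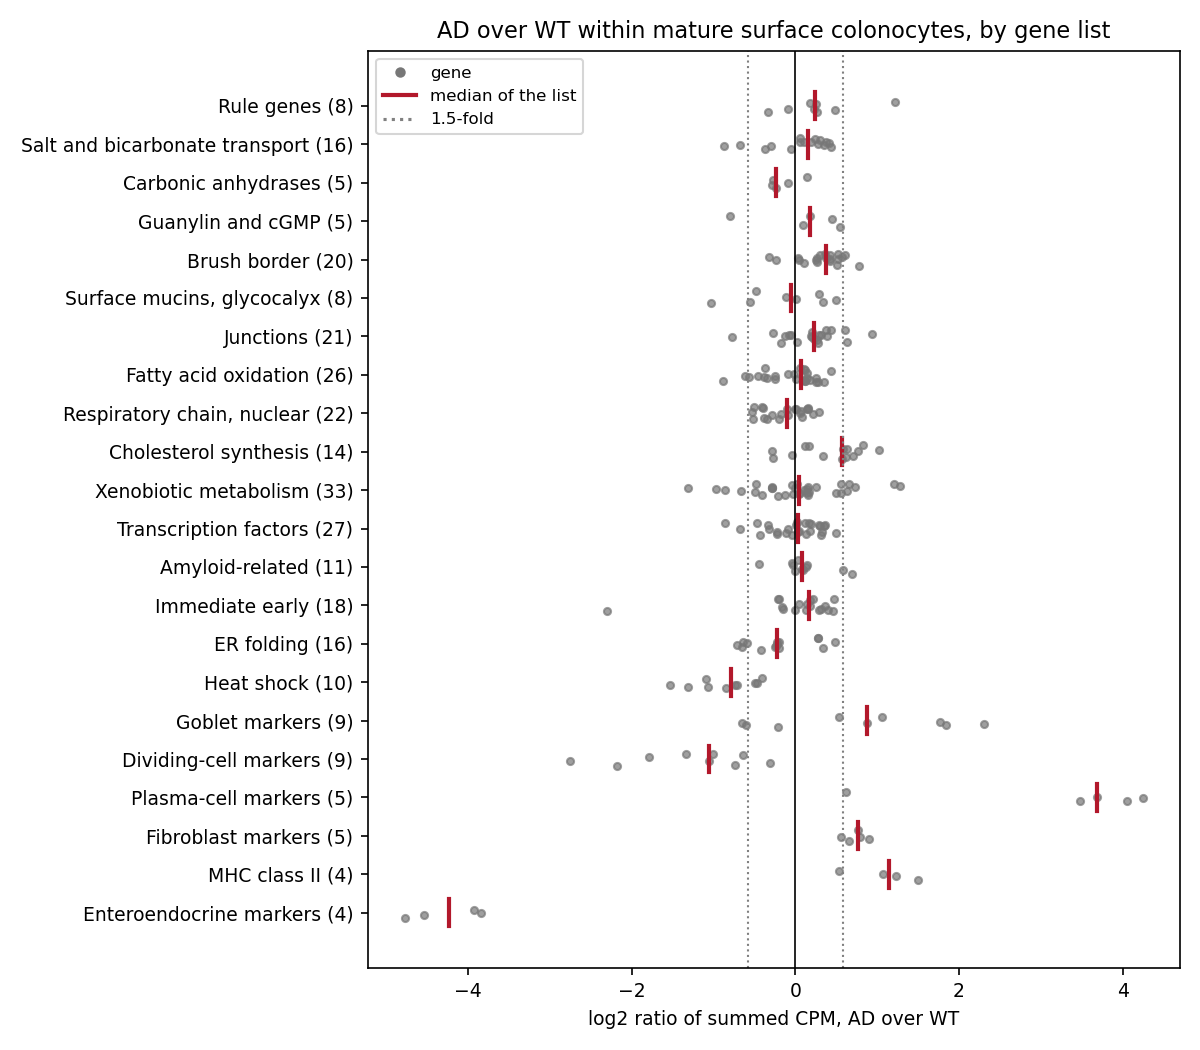
Log2 ratio of summed CPM, AD over WT, within mature surface colonocytes, with each point 1 measured gene, red bars at the list median, dotted lines at 1.5-fold and the number of genes in brackets. Heat-shock genes lie to the left with a median of -0.79 and cholesterol synthesis genes to the right with a median of 0.57. The medians furthest from 0 are those of plasma-cell markers (3.69) and enteroendocrine markers (-4.23).

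Of 10 measured heat-shock genes, which encode chaperones induced by protein damage and by warming, 7 were at least 1.5-fold lower in AD and 0 higher, against 5.74% of all measured genes lower. The list median was a log2 ratio of -0.79. For the same genes it was -0.36 in other epithelial cells and -0.51 in non-epithelial cells. Lower heat-shock transcripts in AD were thus not limited to surface colonocytes among the cells within the mitochondrial limit. They were not lower at every mitochondrial share. Among barcodes over 50% that met the rest of the surface colonocyte rule, the list median was 0.94, as given below. Promoters of 3 of these genes are shown because the heat-shock factor element, inverted repeats of the pentamer nGAAn, is the shared sequence known to drive them. Each window runs from 250 bases before to 50 bases after the RefSeq start in GRCm38.p6, 5′ to 3′ on the gene's strand, with matches to GAANNTTC or TTCNNGAA in capitals. Both motifs are their own reverse complement, so both strands were searched, and matches may overlap.
Hsph1: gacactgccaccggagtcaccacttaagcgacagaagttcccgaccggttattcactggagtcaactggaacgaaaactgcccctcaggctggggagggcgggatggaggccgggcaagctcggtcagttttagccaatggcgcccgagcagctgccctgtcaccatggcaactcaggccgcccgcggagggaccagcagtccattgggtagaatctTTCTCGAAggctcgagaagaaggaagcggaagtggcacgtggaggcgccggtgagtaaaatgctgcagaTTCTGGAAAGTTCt
Hspe1: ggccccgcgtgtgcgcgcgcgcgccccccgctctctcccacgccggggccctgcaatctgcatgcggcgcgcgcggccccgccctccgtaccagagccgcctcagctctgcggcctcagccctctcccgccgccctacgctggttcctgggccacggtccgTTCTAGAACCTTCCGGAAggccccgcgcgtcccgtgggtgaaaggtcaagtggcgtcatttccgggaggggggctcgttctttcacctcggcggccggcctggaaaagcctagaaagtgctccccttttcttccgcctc
Hspa1b: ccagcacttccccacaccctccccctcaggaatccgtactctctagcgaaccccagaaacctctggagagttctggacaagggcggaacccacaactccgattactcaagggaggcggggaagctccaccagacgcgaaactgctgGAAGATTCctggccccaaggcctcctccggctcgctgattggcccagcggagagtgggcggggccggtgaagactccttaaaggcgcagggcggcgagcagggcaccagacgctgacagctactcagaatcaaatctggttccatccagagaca
The Hsph1 window is chr5:149636287-149636586 on the minus strand and holds 3 matches, 2 of them overlapping. The Hspe1 window is chr1:55087898-55088197 on the plus strand and holds 3 overlapping matches. Hspe1 shares this stretch with Hspd1, which is transcribed from the other strand. The Hspa1b window is chr17:34959189-34959488 on the minus strand and holds 1 match. Of the 10 genes, 7 had at least 1 window, and some had several that overlap. A match was in 7 of their 12 windows (58.3%), which belong to Dnaja1, Hspa1a, Hspa1b, Hspd1, Hspe1 and Hsph1, against 4946 of all 32851 windows (15.1%) of the same length. A match describes letters and is not evidence of factor binding.

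Hsph1, a disaggregating co-chaperone of the Hsp70 family, had 155 UMIs in 88 AD cells and 194 UMIs in 47 WT cells. That was 32.1 CPM in AD and 92.7 CPM in WT, a log2 ratio of -1.53 (95% interval -1.84 to -1.22). Hspa1b, an inducible Hsp70, had 1898 UMIs in AD and 2045 in WT (393 and 977 CPM), a ratio of -1.31. Its promoter window matches that of Hspa1a at 296 of 300 positions. The transcripts of this pair were not compared, so how reads were divided between them is uncertain. Hspa1a itself had 1097 UMIs in AD and 995 in WT (227 and 475 CPM), a ratio of -1.07. Hspe1, the mitochondrial chaperonin cofactor, had 804 UMIs in AD and 743 in WT (167 and 355 CPM), a ratio of -1.09. Its partner Hspd1 was at -0.85, Hsp90aa1 at -0.73 and Dnaja1 at -0.72, and Hspa8, Dnajb1 and Hsp90ab1, at -0.50, -0.47 and -0.40, were under 1.5-fold. The lower values were thus shared by cytosolic and mitochondrial chaperones. Of 16 folding genes of the endoplasmic reticulum, 4 were lower and 0 higher, against 5.74% and 6.66% of all measured genes.

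Of 14 measured genes of sterol synthesis and uptake, 6 were at least 1.5-fold higher in AD and 0 lower, against 6.66% of all measured genes higher, with a list median of 0.57. For the same genes the median was 0.29 in other epithelial cells and -0.20 in non-epithelial cells. Hmgcs1, an early enzyme of the pathway, had 1320 UMIs in 287 AD cells and 281 UMIs in 66 WT cells. That was 273 CPM in AD and 134 CPM in WT, a log2 ratio of 1.02 (0.84 to 1.22). The later enzymes Cyp51 and Sc5d had ratios of 0.77 and 0.71, and the squalene synthase gene Fdft1 0.63.

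The rest of the sterol list did not share that size. Msmo1 at 0.58 and Insig1 at 0.57 were just under 1.5-fold, Sqle was at 0.33, Srebf2, the factor that drives the pathway, at 0.16, and Idi1 at 0.11. Dhcr7, Mvk and Fdps were at -0.04, -0.28 and -0.29. After thinning to 1000 UMIs, Hmgcs1 was present in 21.3% of AD and 6.25% of WT surface colonocytes, against 3.33% of AD and 3.34% of WT non-epithelial cells. Among 9 lipid genes, 3 were higher in AD, against 6.66% of all measured genes, and 0 lower: Dgat1, which makes triglyceride (0.85), the desaturase gene Scd2 (0.72) and Apob, the protein of secreted lipoproteins (0.69).

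Several abundant genes of the surface cell were also higher in AD. Prdx6, a peroxiredoxin that reduces peroxides, had 12907 UMIs in 333 AD cells and 2472 UMIs in 92 WT cells (2673 and 1181 CPM), a log2 ratio of 1.18 (1.12 to 1.24). It was the only 1 of 13 redox genes past 1.5-fold, against 6.66% of all measured genes higher and 5.74% lower. Pmp22 had 3865 UMIs in AD and 718 in WT (800.5 and 343 CPM), a ratio of 1.22 (1.11 to 1.34), against 0.67 in other epithelium. Tgm3, a transglutaminase that crosslinks proteins, named after its values were seen, had 3398 UMIs in AD and 533 in WT, a ratio of 1.47. The amino acid transporter gene Slc6a14 had 11548 UMIs in AD and 3043 in WT (2392 and 1454 CPM), a ratio of 0.72 (0.66 to 0.78). Aqp4, a basolateral water channel, had 12209 UMIs in AD and 4161 in WT (2529 and 1988 CPM), a ratio of 0.35 (0.30 to 0.40), which is under 1.5-fold.

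For 16 measured genes of salt and bicarbonate transport, 0 were higher in AD, 2 were lower, and the median was 0.15. Of all measured genes, 6.66% were higher and 5.74% lower. The lower pair, the potassium channel gene Kcnq1 (35.6 CPM in AD, 65.0 in WT, ratio -0.87) and the sodium-potassium-chloride cotransporter gene Slc12a2 (21.9 CPM in AD, 34.9 in WT, ratio -0.67), are basolateral and are known for crypt chloride secretion. The apical sulfate transporter gene Slc26a2 had 716 CPM in AD and 530 in WT, a ratio of 0.43. None of 5 carbonic anhydrase genes passed 1.5-fold. In the guanylin pathway, the receptor gene Gucy2c was at 0.09 (-0.10 to 0.30), and Prkg2, the kinase downstream of it, was lower at -0.80 on 89 AD and 67 WT UMIs.

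The median of the brush border list was 0.37, and ranged from -0.02 to 0.48 over the alternatives. Of 20 measured, 18 had a log2 ratio above 0, against 53.2% of all measured genes, but only 2 were past 1.5-fold: Cobl, an actin nucleator (0.78), and Eps8, an actin capping and bundling protein of microvilli (0.61). The intermicrovillar adhesion gene Cdhr2 was just under, at 0.57. Of 21 junction genes, the desmosome genes Dsg2 (0.94) and Dsp (0.61) and the claudin gene Cldn4 (0.63) were higher, and Cldn15 (-0.77) was lower. Of all measured genes, 6.66% were higher and 5.74% lower. Dsg2 had 1153 UMIs in AD and 261 in WT, or 239 CPM in AD and 125 CPM in WT.

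Among 15 nutrient, bile acid and metal genes, 3 were higher in AD and 1 lower, against 6.66% and 5.74% of all measured genes. The higher ones were Slc37a2 (1.92), Slc6a14 (0.72) and the metallothionein gene Mt2 (0.68, on 346 AD and 93 WT UMIs). Mt1, a second metallothionein, had 3993 UMIs in AD and 1221 in WT, a ratio of 0.50. Of the iron genes, the exporter Slc40a1 was at 0.42, the ferritin heavy chain gene Fth1 at 0.28 and the light chain gene Ftl1 at -0.50, so none passed 1.5-fold.

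Among 8 measured genes of the surface coat, 0 were higher in AD and 1 lower, against 6.66% and 5.74% of all measured genes. Lypd8, a secreted protein that keeps flagellated bacteria off the epithelium, had 31527 UMIs in AD and 11151 in WT, a log2 ratio of 0.29. The membrane mucin genes Muc13 and Muc3 were at -0.12 and 0.49, and the split of reads between Muc3 and Muc3a, which was at -0.48, is uncertain. The lower gene was B4galnt2, a glycosyltransferase, at -1.04 on 90 AD and 80 WT UMIs. Of 14 signals to neighbouring cells and their receptors, 1 was higher and 3 lower, against 6.66% and 5.74% of all measured genes. Bmp2, a differentiation signal made at the surface, had 164 CPM in AD and 96.5 CPM in WT, a ratio of 0.76 (0.54 to 0.99), while Ihh, the hedgehog signal to the stroma, was at -0.60 and the Notch ligand gene Jag1 at -0.75. The other lower gene, Nrg1, had nearly all its WT UMIs in few cells. The epidermal growth factor family ligands Areg and Hbegf were at 0.34 and 0.52.

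Among metabolic lists, none of 22 nuclear genes of the respiratory chain passed 1.5-fold, and of 26 fatty acid oxidation genes 0 were higher and 2 lower, among them Acsf2, an acyl-CoA synthetase (-0.89; 31.3 CPM in AD and 57.8 in WT). Of 33 xenobiotic genes 5 were higher and 4 lower, against 6.66% and 5.74% of all measured genes. The ends of that list were Cyp2c68 (1.28) and the carboxylesterase gene Ces2a (1.20) on the higher side, and the glutathione transferase genes Gsta4 (-1.32) and Gsta1 (-0.97) on the lower. In the WT library 50% of Cyp2c68 UMIs lay in 5 cells. Cyp2c55, one of the genes highest over other epithelium, was at 0.06, with 801 CPM in AD and 768 CPM in WT.

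Of 27 transcription factors of the gut epithelium, 0 were higher and 2 lower, against 6.66% and 5.74% of all measured genes. The lower ones were the nuclear receptor gene Hnf4g (58.6 CPM in AD, 106 in WT, ratio -0.86) and the homeobox gene Isx (27.5 CPM in AD, 44.0 in WT, ratio -0.68). Among Hox genes, which mark position along the gut, Hoxb13 was higher in AD (256 CPM in AD, 162 in WT, ratio 0.66), and Hoxa10 (-0.71) and Hoxb9 (-0.79) were lower. Slc10a2, the bile acid transporter best known from the ileum, was lower at -1.13 on 95 AD and 90 WT UMIs. The same 3 Hox genes stood at 0.68, -0.27 and -0.25 in other epithelial cells. Whether the tissue was taken from the same stretch of colon is not given in the sources used here.

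The AD mice carry a transgene for amyloid precursor protein, so the mouse genes of this pathway were read out as well. App had 1002 UMIs in 285 AD cells and 396 UMIs in 83 WT cells (207.5 and 189 CPM), a log2 ratio of 0.13 (-0.04 to 0.30). Of 11 measured genes 1 was higher in AD and 0 lower, against 6.66% and 5.74% of all measured genes, and the list median was 0.08. The higher gene was Ide, at 0.70 on 222 AD and 59 WT UMIs. It encodes insulin-degrading enzyme, a protease that also cleaves amyloid β. The App relative Aplp2 was at 0.58, the γ-secretase subunit gene Psenen at -0.45, and the β-secretase gene Bace1 at -0.04. How reads from the human transgenes would be assigned is not given in the sources used here.

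At 2-fold, 90 genes (1.48%) were higher in AD and 85 (1.4%) lower, and many of the widest ratios came from few cells. Reg3b, a secreted antibacterial lectin, had 0 UMIs in AD and 1063 in WT, of which 987 lay in 1 of the 7 cells holding any. Its relative Reg3g had 0 UMIs in AD and 197 in 4 WT cells. Against a floor of 3 counts per library, Reg3b was at least 817-fold and Reg3g at least 151-fold lower in AD, and these folds describe 7 and 4 WT cells. Pcsk1n and Nrg1 had 94.3% and 98.3% of their WT UMIs in 5 cells. The plot of UMIs held by the top cells sets such genes beside evenly spread ones.

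**Figure D4:**
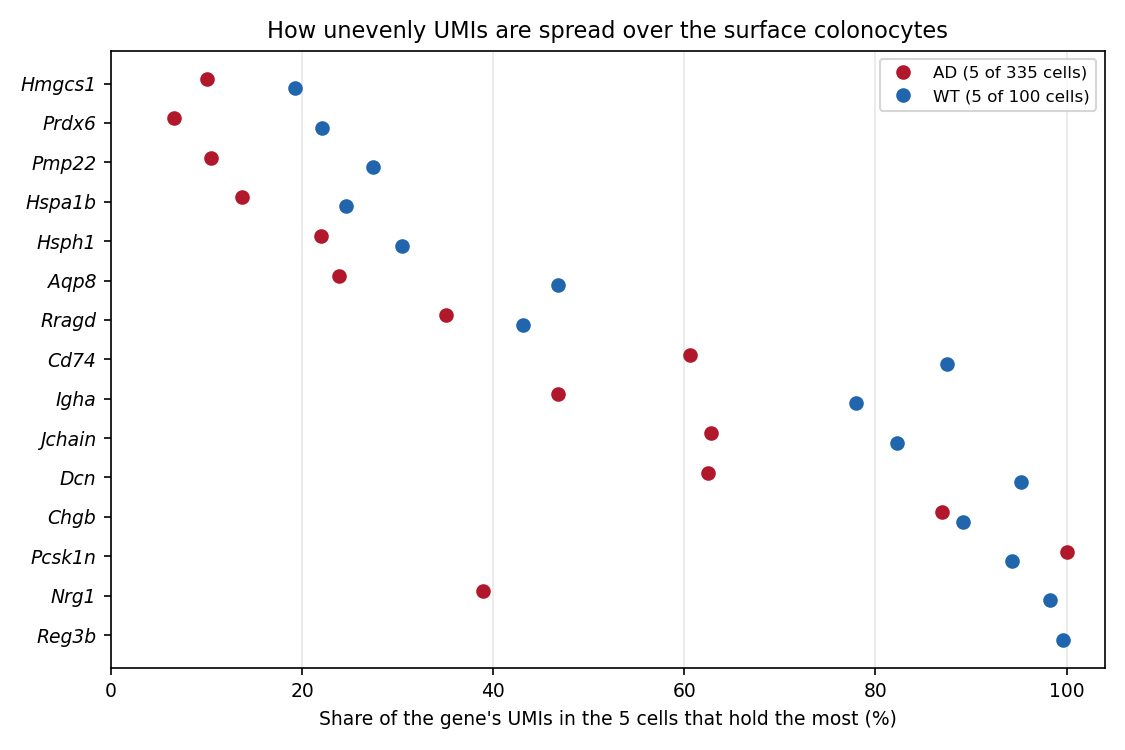
Share of a gene's UMIs (%) held by the 5 cells with the most of it, in 335 AD and 100 WT surface colonocytes. Prdx6 is spread over cells, at 6.61% in AD and 22.1% in WT, while Chgb has 87.0% in AD and 89.2% in WT in 5 cells. Reg3b has no AD point because it had 0 UMIs there.

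Other wide ratios were spread over many cells. Sass6, a centriole protein gene, had 227 UMIs in 155 AD cells and 4 UMIs in 3 WT cells (47.0 and 1.91 CPM), a log2 ratio of 4.45 (3.24 to 6.51). It stood at 2.82 in other epithelial and 4.26 in non-epithelial cells, so it differed between the libraries as a whole. Slc37a2, a sugar-phosphate exchanger, had 587 UMIs in 152 AD cells and 67 UMIs in 20 WT cells, a ratio of 1.92 (1.56 to 2.31). On the lower side, Rragd, a GTPase of lysosomal nutrient sensing, had 117 UMIs in 61 AD cells and 253 UMIs in 48 WT cells, a ratio of -2.32 (-2.65 to -1.997). Socs3, an inhibitor of cytokine signalling, had 40 UMIs in 33 AD cells and 86 UMIs in 36 WT cells, a ratio of -2.30. It was the 1 gene of 18 immediate-early genes past 1.5-fold in these cells, against 6.66% of all measured genes higher and 5.74% lower. That list differed at higher mitochondrial shares, as given below.

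Of the genes of the major histocompatibility complex, none of 4 class I genes passed 1.5-fold. In class II, 3 of 4 genes were higher in AD, against 6.66% of all measured genes, with a median of 1.15, and the difference between the classes was not tested. Cd74, the chaperone of class II molecules, had 474 UMIs in 113 AD cells and 72 UMIs in 14 WT cells, and 5 cells held 60.6% of these UMIs in AD and 87.5% in WT. Members of this family share sequence, so the split of reads between them is uncertain. Without cells high in markers of other cell types the log2 ratio of Cd74 was -0.56, so its direction rests on those cells.

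Transcripts of other cell types were measured in the surface colonocytes, and their part in the ratios above was not tested. Summed plasma cell markers were at 6009 CPM in AD, in all 335 cells, and at 545 CPM in WT, in 94 of 100 cells. They ranged from 8.93 to 3177 per 10000 UMIs in AD cells and from 0 to 3178 in WT cells, with Igkc and Iglc1 at 0 in both libraries, and 5 cells held 50.6% in AD and 74.6% in WT. Igha, the heavy chain of secreted IgA, accounted for most of it, with 20944 UMIs in AD and 816 in WT. Goblet markers were at 839 CPM in AD (0 to 95.4 per 10000) and 409 CPM in WT (0 to 27.0 per 10000). In that list 5 of 9 measured genes were higher and 2 lower, against 6.66% and 5.74% of all measured genes. Enteroendocrine markers were at 82.6 CPM in AD (0 to 68.1 per 10000) and 899 CPM in WT (0 to 839.9 per 10000), where 5 cells held 86.4%.

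Cell division and stromal markers differed as well. Of 9 measured division genes 8 were lower in AD and 0 higher, against 5.74% and 6.66% of all measured genes. Sums over the whole list were 414 CPM in AD and 845 CPM in WT, and 5 WT cells held 48.1% of the WT sum. Among fibroblast genes 4 of 5 were higher, against 6.66% of all measured genes, with list sums of 599 CPM in AD and 384 CPM in WT. For Dcn, 62.5% of UMIs in AD and 95.2% in WT lay in 5 cells. T and natural killer cell markers were at 19.9 CPM in AD and 13.4 in WT, B cell markers at 25.5 in AD and 27.7 in WT with Ms4a1 at 0 in both, tuft markers at 14.5 in AD and 8.60 in WT, and endothelial markers at 11.4 in AD and 10.99 in WT. Myeloid markers were at 154 CPM in AD and 157 CPM in WT. Erythroid markers were at 21.95 CPM in AD, in 86 of 335 cells, and at 72.6 CPM in WT, in 72 of 100 cells, with Alas2 at 0 in both.

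Because the mitochondrial limit removed more of the WT library, barcodes that met every other part of the rule were also split by mitochondrial share. With no mitochondrial limit, the gate on Duox2 and the 6 genes listed with it left out 18 AD and 357 WT otherwise qualifying barcodes. The cells of the higher ranges are thus what remained after an unequal exclusion. Between 25% and 50% there were 195 AD and 285 WT cells, at median depths of 5802 and 6378 UMIs, and over 50% there were 38 AD and 215 WT cells, at 7139 and 6074 UMIs. Hmgcs1 had log2 ratios of 1.02, 1.09 and 0.92 from the lowest to the highest mitochondrial share, and Cyp51 0.77, 0.65 and 1.03. The list median was 0.57, 0.63 and 0.41, with 6, 8 and 5 of 14 genes at least 1.5-fold higher and 0, 1 and 0 lower. Over all 6067 measured genes the counts were 404, 724 and 1538 higher and 348, 520 and 1149 lower. The sterol values over 50% rest on few AD UMIs, with 22 for Hmgcs1 and 8 for Cyp51. Prdx6 (1.18, 0.91 and 0.77), Pmp22 (1.22, 1.15 and 0.69), Tgm3 (1.47, 1.13 and 0.85) and Slc6a14 (0.72, 0.82 and 0.67) also had the same sign in the 3 ranges. Aqp4 was at 0.35, 0.62 and 0.79.

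The heat-shock genes changed sign over the ranges. Their list median was -0.79, -0.41 and 0.94 from the lowest to the highest mitochondrial share, with 7, 4 and 0 of 10 genes lower in AD and 0, 0 and 7 higher. Hspa1b was at -1.31, -0.59 and 0.95, and Hsph1 at -1.53, -0.78 and 1.10. The direction for heat-shock genes is therefore that of barcodes up to 50% mitochondrial UMIs. Surface genes differed between ranges too: Aqp8 was at 1.22, -0.52 and -1.01, Slc26a3 at 0.23, -0.09 and -1.07, Car4 at -0.10, -0.52 and -1.09, and Slc9a3 at -0.34, -0.42 and -2.33. Guca2a varied least of the 8, at 0.18, 0.07 and -0.14. The median of the immediate-early list was 0.16, 0.65 and 1.41 from the lowest to the highest mitochondrial share. Of its 18 genes, 0, 12 and 15 were at least 1.5-fold higher in AD, and 1 was lower in each range. Of all 6067 measured genes, 404, 724 and 1538 were higher and 348, 520 and 1149 lower. The median over all measured genes was 0.03, 0.06 and 0.10.

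**Figure D5:**
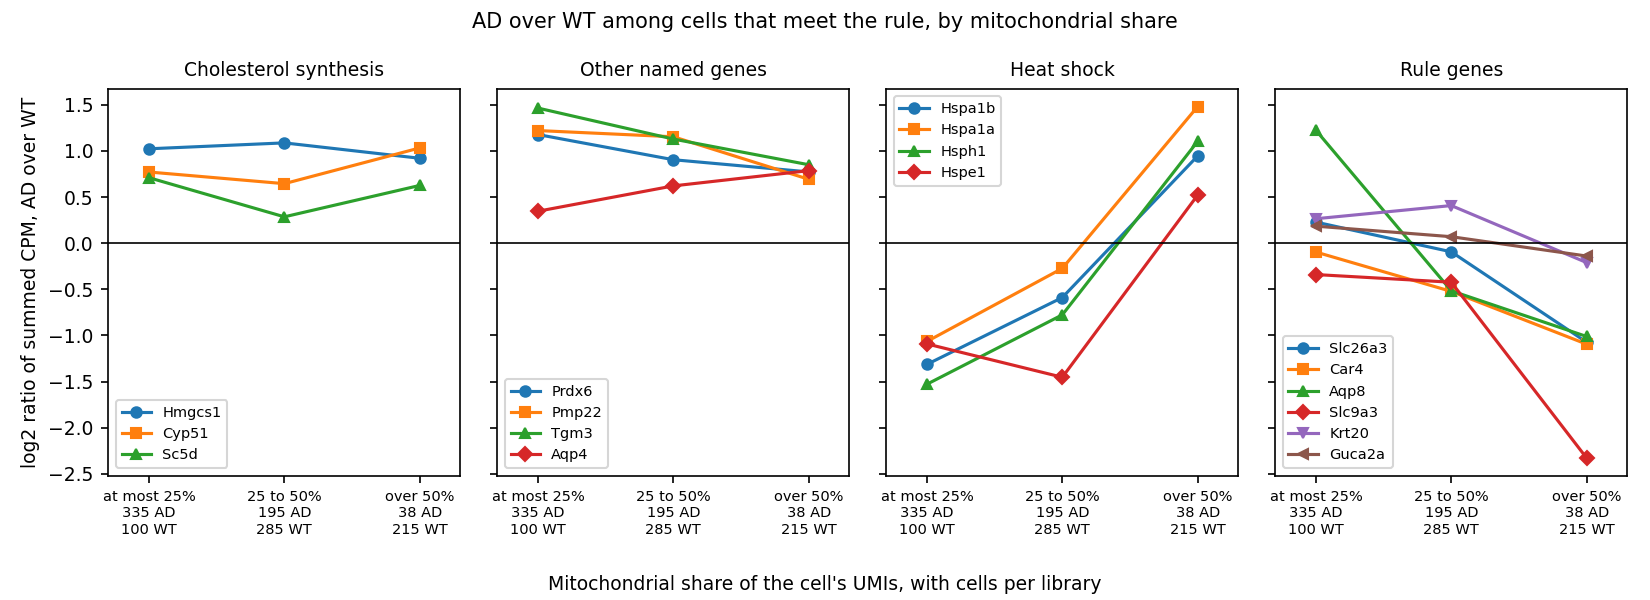
Log2 ratio of summed CPM, AD over WT, among barcodes meeting every other part of the rule, in 3 ranges of mitochondrial share (cells per library under each), for sterol genes, other named genes, heat-shock genes and 6 of the surface genes. The 3 sterol genes shown stay above 0 in each range, while the 4 heat-shock genes lie below 0 up to 50% mitochondrial UMIs and above 0 over 50%. Over 50% some AD sums are small, with 8 UMIs for Cyp51, 8 for Sc5d and 13 for Hsph1.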

How the data were processed

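Single-cell RNA was measured in 2 droplet libraries of mouse colon, 1 AD and 1 WT. The values deposited by the authors are whole UMI counts for every gene in every barcode, without normalization. Tools named in the submitters' processing notes are STAR, Cell Ranger 3.0.1 and Seurat 3.0.2, with mm10 as the build. Of 33083 gene identifiers, 31350 were found in an mm10 name table and 1733 were not, and of 771 genes on 46 lists 9 were not matched.

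UMIs of the surface colonocytes were summed per library and expressed as CPM, with 0.5 counts added to each sum before the log2 ratio of AD over WT. Ratios carry exact conditional, levels exact Poisson and shares exact Clopper-Pearson 95% intervals. These cover counting error only, and the precision is limited by 100 WT cells. A gene was called at 1.5-fold and needed 100 UMIs. Doublets were not called, so cells holding 2 types may be present. Depth was matched for detection shares by thinning each cell to 1000 UMIs, and for correlations to 2000 UMIs. No value between libraries has a p-value. The calculations were checked on simulated data.

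The members and the gene lists were chosen with earlier results of these data known. Genes were named by a fixed rule: the 8 surface genes, the 12 highest and 12 lowest ratios past 2-fold, the 15 highest over other epithelium, up to 4 by level and 4 by ratio in each list, and the 10 most uneven. Genes needed to complete a count of a list, and genes of the splits by surface genes and by correlation, were named in addition. Markers of other cell types, ribosomal, mitochondrial, immunoglobulin, T cell receptor and haemoglobin genes and unnamed gene models were left out of the ranked choices by ratio and over other epithelium. Alternatives changed the mitochondrial limit, the parts of the cell rule, depth, the count minimum, the added count and the weighting of cells. Calculations ran in Python 3.11.15 with pandas 2.3.3, scipy 1.17.1 and numpy 2.4.6, and plots in matplotlib 3.10.9. Values of some genes on the lists are not reported here, although the counts and medians of their lists include them.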

Additional observations from a re-analysis of the deposited data

How the results depend on the processing

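The values were recomputed under 22 other settings and 2 more (leaving out cells high in markers of other cell types, and keeping 5000 to 30000 UMIs) chosen after seeing the data. No paired analysis was possible because each genotype has 1 library. The median of the heat-shock list ranged from -1.07 to -0.21, that of the sterol list from 0.28 to 0.93, and the log2 ratio of Hmgcs1 from 0.83 to 1.49, always with the same sign. The count of genes higher in AD, 404 as reported, was 136 with a 10% mitochondrial limit, 818 with 50%, 1359 with none, 15 when cells also needed under 3 non-epithelial genes, 15 and 48 after thinning to 1000 and 2000 UMIs, and 803 and 208 at minimums of 30 and 300 UMIs. The count lower in AD, 348 as reported, was 30 at 10%, 797 with 3 surface genes, 230 with 6, 19 with the non-epithelial limit, 221 without the deepest 5% of cells, 13 and 35 after thinning, 632 with cells weighted equally, 1055 and 110 at the 2 minimums, 210 without other-type cells and 220 within the depth range. Genes higher than in other epithelium, 437 as reported, numbered 169 at 10%, 241 with no limit and 168 at 1% epithelial UMIs. They numbered 121 with no exclusion gene allowed, 59 with the non-epithelial limit, and 51 and 181 after thinning. The AD over WT ratio of the share of epithelial cells, 1.12 as reported, was 0.566 at 10%, 0.767 with no limit, 0.885 with 3 surface genes, 0.754 with the non-epithelial limit, 0.815 at 1000 UMIs and 1.496 within the depth range. For the share of kept cells, 1.11 as reported, it was 0.719 at 10%, 0.705 at 50%, 0.577 with no limit, 0.872 with 3 surface genes, 0.742, 0.838 and 1.47 in the same order. Among values at least 1.5-fold as reported, signs turned for 3 of 42 genes and 2 of 7 list medians: Aqp8 (-0.27 at 50%, -0.59 with no limit, -0.078 with cells weighted equally), Cd74 (-0.022 without the deepest cells, -0.56 without other-type cells), Tgm3 (-0.58 with the non-epithelial limit, which left 10 AD and 18 WT cells), the dividing list (0.036 with 6 surface genes) and the fibroblast list (-0.31 with cells weighted equally). Among values under 1.5-fold as reported, 8 of 10 genes and 11 of 13 list medians had the opposite sign in at least 1 alternative. Slc26a3 ranged from -0.95 to 0.53, Krt20 from -0.59 to 0.50, Guca2a from -0.75 to 0.57, Ceacam20 from -0.31 to 0.57, Car4 from -1.17 to 0.15, Car1 from -1.04 to 4.05, Saa1 from -1.68 to 0.22 and Aqp4 from -0.03 to 1.12. The medians of the 8 surface genes (-0.67 to 0.51), brush border (-0.02 to 0.48), junction (-0.06 to 0.55) and endoplasmic reticulum folding genes (-0.32 to 0.15) did so too. Where fewer cells or UMIs enter, fewer genes reach the minimum; beyond that the cause was not tested.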
